A study of Arabidopsis thaliana with 6 samples.

Results

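The N-hydroxypipecolate pathway was examined as 4 genes taken by their identifiers from the 33037 features of the deposited tables: ALD1 (AT2G13810), SARD4 (AT5G52810), FMO1 (AT1G19250) and UGT76B1 (AT3G11340). RNA was sequenced from closed flower buds of Arabidopsis thaliana, from wild-type plants and from plants carrying naa50-1, a mutant allele of the amino-terminal acetyltransferase gene NAA50, in 3 biological replicates each. The labels state no treatment, age or ecotype for either genotype, and do not describe the naa50-1 lesion. In these buds 2 of the 4 genes, SARD4 and UGT76B1, had enough counts to be tested and 0 of them were called, against 9.53% of all tested genes (3.94% called higher and 5.59% called lower in naa50-1). ALD1 and FMO1 were close to the detection limit in both genotypes. Of 28 known regulators of the pathway, activators and repressors together, 14 rose. Members and lists were chosen with earlier results of these data known.

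N-hydroxypipecolate is a lysine-derived signal that moves through the plant and sets up systemic acquired resistance, the state of heightened immunity that follows a local infection. ALD1 is the aminotransferase that starts the route from lysine, SARD4 is the reductase that helps to form pipecolate, FMO1 is the flavin monooxygenase that hydroxylates pipecolate to the active signal, and UGT76B1 is a glucosyltransferase that turns the signal, and salicylate, into inactive glucosides. In leaves the pathway is known to be switched on after infection together with salicylate synthesis, with the transcription factors SARD1 and CBP60G binding to promoters of both arms. The genes below are ordered along the route, followed by their regulators, the supply of lysine, the salicylate arm, the responding genes and the relatives of the enzymes.

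The bases around the annotated starts are shown because SARD1 and CBP60G, whose transcripts rose, are known to bind DNA that holds GAAATT. Each line runs 5′ to 3′ on the strand of the gene, from 250 bases before the annotated start to 50 bases from it, in the RefSeq genome TAIR10.1. The start and end of all 4 genes in the deposited files equalled those of that reference. Capitals mark GAAATT or its reverse complement and the W box core TTGAC, the letters bound by WRKY factors; TGACG, the letters of TGA factors, was searched on both strands as well and was found in none of the 4.
ALD1 (chr2:5768167-5768466, plus strand): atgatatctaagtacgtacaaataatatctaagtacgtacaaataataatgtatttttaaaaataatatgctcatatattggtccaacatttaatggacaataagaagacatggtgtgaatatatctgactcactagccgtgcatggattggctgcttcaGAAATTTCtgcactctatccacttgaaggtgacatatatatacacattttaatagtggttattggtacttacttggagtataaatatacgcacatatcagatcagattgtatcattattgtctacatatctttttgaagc
SARD4 (chr5:21399081-21399380, plus strand): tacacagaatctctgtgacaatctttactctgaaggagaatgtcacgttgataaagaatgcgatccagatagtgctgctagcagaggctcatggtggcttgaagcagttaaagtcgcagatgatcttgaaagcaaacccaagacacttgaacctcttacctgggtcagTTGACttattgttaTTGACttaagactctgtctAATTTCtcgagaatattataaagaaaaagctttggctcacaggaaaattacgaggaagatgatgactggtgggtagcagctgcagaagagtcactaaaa
FMO1 (chr1:6653146-6653445, minus strand): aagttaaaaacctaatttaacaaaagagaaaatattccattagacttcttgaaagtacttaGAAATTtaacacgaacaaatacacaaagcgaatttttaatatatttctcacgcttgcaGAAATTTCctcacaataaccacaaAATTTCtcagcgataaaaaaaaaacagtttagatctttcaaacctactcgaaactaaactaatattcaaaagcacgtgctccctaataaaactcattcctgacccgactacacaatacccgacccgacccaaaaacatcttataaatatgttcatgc
UGT76B1 (chr3:3556304-3556603, plus strand): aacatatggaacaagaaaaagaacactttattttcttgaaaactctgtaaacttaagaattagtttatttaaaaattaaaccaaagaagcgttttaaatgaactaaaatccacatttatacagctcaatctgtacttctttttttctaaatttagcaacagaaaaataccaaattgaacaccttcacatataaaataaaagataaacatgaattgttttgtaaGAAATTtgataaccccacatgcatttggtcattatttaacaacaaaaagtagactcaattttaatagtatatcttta
GAAATT on either strand was found in each of the 4 windows, as it was in 36.7% of the windows of 27413 protein-coding genes. FMO1 held 4 matches, which begin at 189, 131, 129 and 107 bases before the start, and the pair at 131 and 129 overlaps on opposite strands. ALD1 held 2 overlapping matches at 90 and 88 bases, SARD4 held 1 at 49 bases and UGT76B1 held 1 at 27 bases. TTGAC was found in SARD4 alone among the 4, at 82 and 68 bases before the start, against 50.5% of all windows, and TGACG is held by 23.1% of them. The SARD4 window lies wholly within the span of the neighbouring gene AT5G52800, which is on the same strand. These matches are descriptions of letters, and binding was not measured.

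The 6 libraries held 19727584 to 20813563 counts each. NAA50 RNA itself was higher under the naa50-1 label. Wild-type libraries averaged 26.3 ± 2.39 CPM and libraries labelled naa50-1 averaged 2680 ± 295 CPM (n = 3 per genotype, SD). The labels do not describe the lesion, so they set no direction for NAA50 RNA. CPM are counts scaled to a common library size by TMM. Every direction given here therefore refers to the label of a library. The 5 floral organ identity genes AP1, AP3, PI, AG and SEP3 took 0.0878% to 0.115% of counts in the wild type and 0.105% to 0.137% in the libraries labelled naa50-1, and none of them was called by edgeR, DESeq2 or limma-voom, or reached an unadjusted p under 0.05. The 8 mature pollen and sperm markers took 0.0797% to 0.118% of counts in the wild type and 0.00501% to 0.0052% in the libraries labelled naa50-1, where ANX2 and HTR10 had 0 counts. By edgeR 7 of these 8 markers fell, beside 5.59% of all tested genes. The marker that did not pass was ANX1 (log2 fold change -0.42, adjusted p = 0.0849, edgeR). In bulk buds fewer cells of a type and less RNA per cell cannot be told apart. The part of the pollen transcripts in the results below was not tested. SAG12, a protease of senescing leaves, had 0, 0 and 3 counts in the wild type and 32, 1 and 0 in the libraries labelled naa50-1.

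ALD1, the entry step, was barely detected in either genotype. It had 0, 3 and 0 counts in wild type replicates 1, 2 and 3, and 0, 3 and 0 counts in the libraries labelled naa50-1. A count of 3 in a library corresponds to 0.141 to 0.153 CPM here, which is also the level that a count of 0 allows. Both groups were at this limit, so no fold is read from them. The ratio of the summed counts had an exact 95% interval of 0.13 to 7.27, which covers counting error only. A change within that range could not be resolved at this depth. The gene (TAIR10 chromosome 2, 5768417 to 5772266, plus strand) has 10 exons, and its counted length is 1571 bases. Its longest nucleotide match was AGD2, the aminotransferase of lysine synthesis, with 66.5% identity over 1106 bases, and no transcript matched ALD1 at 95% identity over 100 bases.

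SARD4, which acts after ALD1, was the most abundant of the 4 genes. Its wild-type levels were 14.3, 9.50 and 11.4 CPM and its levels in the libraries labelled naa50-1 were 17.2, 16.5 and 13.7 CPM. The groups overlapped, since naa50-1 replicate 3 lay below wild type replicate 1. The fitted log2 fold change was 0.43 (SE 0.18, 95% interval 0.03 to 0.83), or 1.35-fold, with an unadjusted p of 0.0364 and an adjusted p of 0.21 (edgeR quasi-likelihood test), so SARD4 did not pass. Across all tested genes 19.2% reached an unadjusted p under 0.05. The value moved with single libraries, from 0.30 without wild type replicate 2 to 0.60 without wild type replicate 1, and the adjusted p ran from 0.0895 to 0.406 over 14 alternative fits. SARD4 (chromosome 5, 21399331 to 21400686, plus strand) is a single exon, and its first 89 bases are shared with the end of AT5G52800 on the same strand. Reads that fall there could come from either gene. AT5G52800 itself had a log2 fold change of 0.22 (adjusted p = 0.739, edgeR).

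FMO1, the step that makes the active signal, stood higher in all 3 libraries labelled naa50-1 than in any wild-type library, at very low levels. The wild-type libraries held 0, 0 and 4 counts and those labelled naa50-1 held 5, 7 and 7, or 0, 0 and 0.205 CPM against 0.25, 0.33 and 0.341 CPM. The groups did not overlap, which was so in this direction for 10.5% of the 27396 features with a count. The ratio of the summed counts was 4.62, with a 95% interval of 1.54 to 18.7 that covers counting error only. An exact two-sided permutation test of CPM gave p = 0.1, the smallest that 3 libraries against 3 can give. FMO1 was under the count filter of the test. Without that filter its log2 fold change was 2.10 with an unadjusted p of 0.0694 and an adjusted p of 0.342 (edgeR), and DESeq2 gave 2.19 with an adjusted p of 0.51. All 4 wild-type counts came from replicate 3. Without that library FMO1 was 2.07-fold higher, taking 3 counts in each remaining wild-type library as the floor. That value takes the naa50-1 counts as exact, so it is no lower bound on the change once counting error is allowed for. The gene (chromosome 1, 6650476 to 6653195, minus strand) has 5 exons. Its longest nucleotide match, FMO2 (AT5G45180), is 78.5% identical over 762 bases and had 0 and 2 counts in the groups. AT1G19240, which starts 30 bases past the 3′ end of FMO1 on the same strand, had 627 and 613 counts in the groups (log2 fold change -0.07, adjusted p = 0.87, edgeR).

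UGT76B1, which inactivates the signal, had nearly the same mean in both genotypes. Its wild-type levels were 1.75, 0.682 and 1.13 CPM and its levels in the libraries labelled naa50-1 were 1.45, 1.41 and 0.73 CPM. The highest wild-type library was 2.57 times the lowest, the highest naa50-1 library 1.99 times the lowest, and the groups overlapped throughout. The log2 fold change was 0.02 (SE 0.44, adjusted p = 0.992, edgeR), with a 95% interval of -0.97 to 1.00. A p that misses the threshold does not show that the genotypes are alike, and the interval still holds changes from 0.511-fold to 2.004-fold. UGT76B1 (chromosome 3, 3556554 to 3558361, plus strand, 2 exons) overlaps no other gene, and no transcript matched it at 95% identity over 100 bases. Its longest match was UGT76C4, at 66.2% identity over 662 bases.

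**Figure D1:**
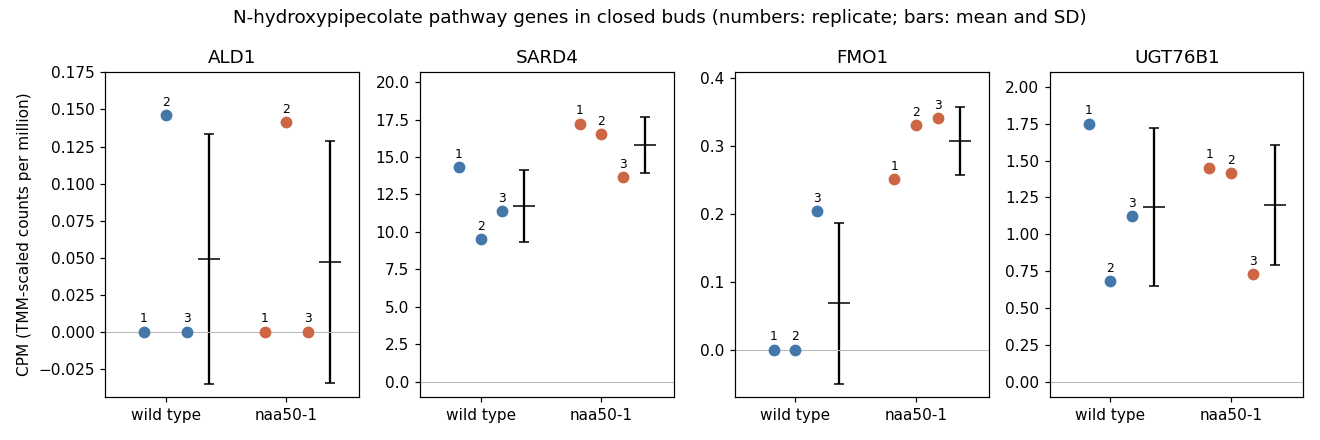
Level of each pathway gene in CPM (y axis, own linear scale in each panel) in the 3 wild-type and 3 naa50-1 libraries (points, numbered by replicate), with the mean and SD of each group at its right. ALD1 has a value above 0 in replicate 2 of each genotype, FMO1 lies at 0.25 to 0.341 CPM in naa50-1 against 0 to 0.205 in the wild type, and the groups of SARD4 and UGT76B1 overlap.

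Of the 2 genes that passed the count filter, 0 were called by edgeR, DESeq2 or limma-voom, where edgeR called 2021 of 21196 tested genes. SARD4 alone of them reached an unadjusted p under 0.05. With no filter, 0 of 4 were called. Per transcript length the order of levels was the same in both genotypes. SARD4 stood at 8.61 ± 1.84 FPKM, a count scaled by gene length and library size, for wild type and at 11.6 ± 1.38 for naa50-1 (SD over 3 libraries). UGT76B1 stood at 0.683 ± 0.314 and 0.691 ± 0.234 FPKM, FMO1 at 0.0354 ± 0.0613 and 0.16 ± 0.026 FPKM, and ALD1 at 0.0306 ± 0.053 and 0.03 ± 0.052 FPKM. FMO1 and ALD1 did not differ beyond their spread in wild-type libraries. By mean FPKM, SARD4 was above 66.1% of all 33037 features, UGT76B1 above 37.7%, FMO1 above 26.5% and ALD1 above 21.3%. The steps were compared with each other by the log2 ratio of FPKM + 0.1 in each library. From wild type to naa50-1 the ratio of FMO1 to ALD1 moved by 1.03 and that of UGT76B1 to FMO1 by -0.98 (exact permutation p = 0.2 and adjusted p = 0.3 for each of these among 3 ratios). The ratio of SARD4 to ALD1 moved by 0.45 (exact permutation p = 0.6, adjusted p = 0.6). At the levels of ALD1 and FMO1 these ratios rest largely on the pseudocount of 0.1.

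In the authors' deposited table the log2 fold changes were 0.43 for SARD4, 2.19 for FMO1, 0.02 for UGT76B1 and -0.03 for ALD1. The adjusted p in the authors' deposited table was 0.237, 0.505, 1.00 and 1.00 in the same order, and 9.31% of 26574 genes in that table were under 0.05.

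The genes whose pattern over the 6 libraries was most like each member were found by the root mean square difference of log2 CPM, each gene centred on its own mean. Nearest to SARD4 were ABCC10, an ABC transporter (0.0487), CNGC1, a cyclic nucleotide-gated channel (0.0625), and AT1G78820, an EP1-like glycoprotein (0.0688). As many as 2284 tested genes lay within 0.25 of SARD4, so its pattern was a common one. Nearest to UGT76B1 were AT4G29980 (0.179), UGT73C1, another glucosyltransferase (0.179), and TCX8 (0.186), and 30 genes lay within 0.25. Nearest to FMO1 were AT3G50900 (0.19), EDA4 (0.21) and LSU1 (0.264), and nearest to ALD1 were AT1G22000 (0.125), AT1G79480 (0.256) and AT5G63087 (0.285). The profiles of FMO1 and ALD1 consist of a few counts and a prior count of 2, so their likeness carries little.

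Upstream of the pathway, 14 of 28 regulators rose and 0 fell by edgeR, with 0 lower at an unadjusted p under 0.05 and 0 by DESeq2, against 3.94% of tested genes called higher and 5.59% called lower. For 17 of the 28 every library labelled naa50-1 lay above every wild-type library, as for 11.6% of tested genes. For 1, MPK6, every such library lay below (log2 fold change -0.13, adjusted p = 0.474, edgeR). The share of tested genes in that direction was not computed. The median log2 fold change of the 28 was 0.53, against -0.01 over all tested genes. The list mixes activators with repressors, so the count is not one of activators alone. This list and those below were chosen with earlier results of these data known. Their counts beside the background are therefore descriptions and not independent tests. Among the repressors are the calmodulin-binding CAMTA1, CAMTA2 and CAMTA3, of which CAMTA3 was among the 14 that rose (log2 fold change 0.50, adjusted p = 0.0212, edgeR). The other regulators were not sorted into activators and repressors. CAMTA3 and WRKY70 were each called in 9 of 14 alternative fits. SARD1, which activates the pathway genes in leaves, averaged 2.13 ± 0.327 CPM in wild-type buds and reached 13.9, 31.7 and 14.3 CPM under the naa50-1 label (log2 fold change 3.22, SE 0.35, adjusted p = 0.000206, edgeR). CBP60G, its relative, averaged 1.31 ± 0.684 CPM and reached 13.2, 25.99 and 10.4 CPM (log2 fold change 3.66, SE 0.43, adjusted p = 0.000354, edgeR). For both genes every library labelled naa50-1 lay above every wild-type library, and replicate 2 was the highest. SARD1 shares 640 bases with GIP2 on the opposite strand, which held 3 wild-type counts and 1 naa50-1 count, and reads of such pairs may not be separated where strand is not used.

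EDS1, PAD4 and SAG101, which form the complexes that carry signals from immune receptors, rose by 1.67, 1.91 and 1.29 on the log2 scale (adjusted p = 3.8e-05, 0.000329 and 0.000467, edgeR). ADR1, a helper immune receptor, rose by 1.57 on the log2 scale, 11.4 ± 2.27 CPM becoming 33.8 ± 3.76 CPM (adjusted p = 0.000164, edgeR). The 14 regulators that did not pass had log2 fold changes from -0.34 (TGA4) to 0.56 (TGA1). They include the salicylate receptors NPR1, NPR3 and NPR4, and the bZIP factors TGA2, TGA5 and TGA6. EDS1 and its copy EDS1B are 82.6% identical over 2186 bases.

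**Figure D2:**
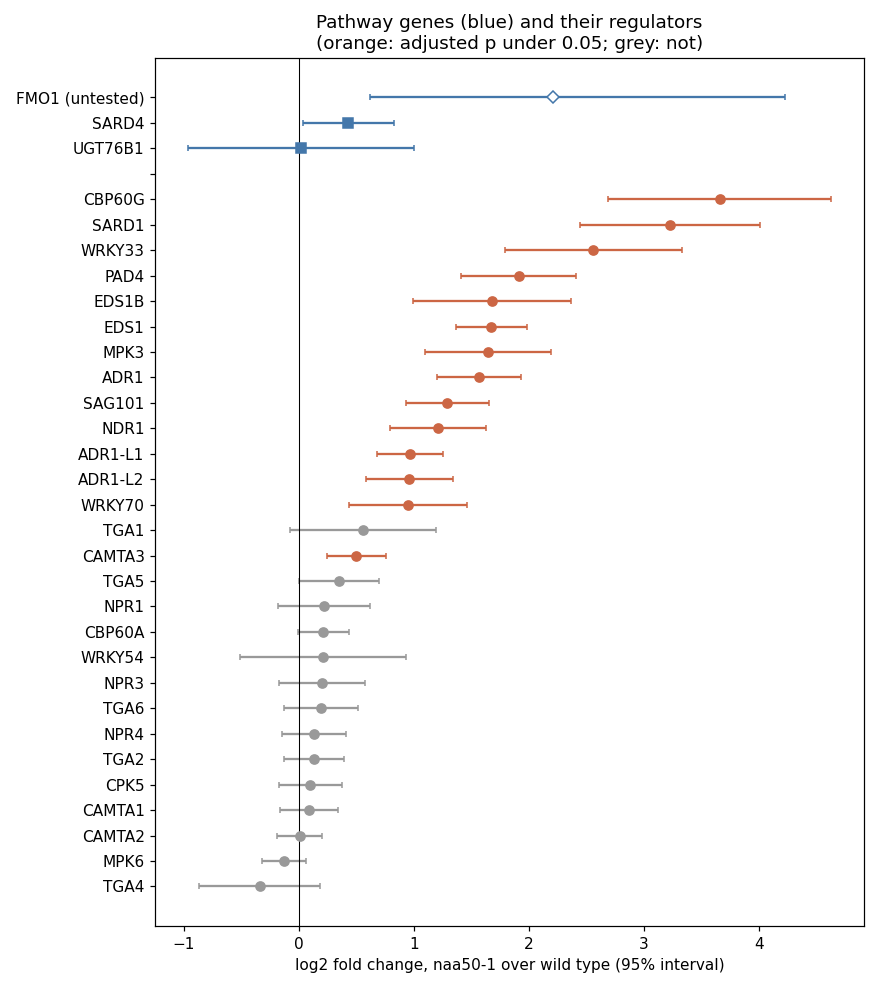
Log2 fold change of naa50-1 over wild type (x axis) with its 95% interval from edgeR, for the 2 tested pathway genes (blue squares) and 28 regulators (circles, orange where the adjusted p was under 0.05). The open diamond is the ratio of summed FMO1 counts with an interval for counting error only. SARD4 at 0.43 and UGT76B1 at 0.02 lie left of SARD1 at 3.22 and CBP60G at 3.66, with intervals that do not reach theirs.

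The sizes of the changes in pathway genes and in their regulators were set side by side. Of the 14 called regulators, 9 had a 95% interval wholly above that of SARD4 and 7 had one wholly above that of UGT76B1. The others overlapped, which for both genes include CAMTA3, ADR1-L1, ADR1-L2, NDR1 and WRKY70, and 0 of the 14 uncalled regulators lay wholly above either. Called regulators passed a threshold that SARD4 and UGT76B1 did not, so these counts were partly fixed by the calls. They describe sizes and are not a test. For the SARD1 and CBP60G pair, which has the largest fitted changes of the list, the upper 95% bounds of SARD4 (0.83) and UGT76B1 (1.00) lay below the lower bounds of SARD1 (2.44) and CBP60G (2.69). The interval of FMO1, which covers counting error only, overlapped theirs. The difference was also expressed within libraries, by the log2 ratio of CPM, for 4 pairs chosen after the values were seen. The ratio of SARD1 to SARD4 was -2.45 ± 0.468 in wild-type libraries and 0.23 ± 0.645 in those labelled naa50-1 (SD over 3), a shift of 2.68. The shift was 3.07 for SARD1 to UGT76B1, 3.22 for CBP60G to SARD4 and 3.61 for CBP60G to UGT76B1. In each of the 4 pairs the groups did not overlap, and the exact two-sided permutation p was 0.1 (adjusted p = 0.1), the smallest that the design allows. The pairs share genes and set the largest changes of the list against genes already seen not to pass. Their separation was thus largely fixed by that choice, and the ratios describe its size without testing it. In naa50-1 replicate 2, where SARD1 and CBP60G were highest, SARD4, FMO1 and UGT76B1 were each second of the 3 libraries. ALD1 was highest in that library, on 3 counts.

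Lysine, the substrate of ALD1, is made in the plastid from aspartate. Of 18 genes of lysine supply and of lysine or pipecolate breakdown, all tested, 1 rose and 0 fell by edgeR, with 0 lower at an unadjusted p under 0.05 and 0 by DESeq2. Among all tested genes 3.94% rose and 5.59% fell, so a count of 1 is near the background. Their median log2 fold change was 0.00. The riser was LHT1, an amino acid transporter of the plasma membrane, which went from 7.61 ± 2.90 to 21.4 ± 8.997 CPM (log2 fold change 1.49, SE 0.32, adjusted p = 0.0155, edgeR). LHT1 no longer passed when wild type replicate 1 was left out (adjusted p = 0.067), nor when wild type replicate 2 was (adjusted p = 0.0617). The other 17 ranged from -0.40 for AT2G24580, an oxidase of pipecolate and sarcosine, to 0.59 for AK-LYS3, an aspartate kinase. AGD2, the plastid aminotransferase of lysine synthesis and the relative of ALD1, was at 73.8 ± 13.3 and 70.9 ± 7.94 FPKM, in contrast to the levels of ALD1 under 0.1 FPKM (log2 fold change -0.06, adjusted p = 0.896, edgeR). LKR/SDH, the bifunctional enzyme that breaks lysine down through saccharopine, was at 39.7 ± 16.7 and 36.4 ± 10.5 FPKM (log2 fold change -0.13, adjusted p = 0.9, edgeR).

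In the salicylate arm, which is switched on with the pathway in leaves, 4 of 9 genes rose and 0 fell by edgeR, beside 3.94% and 5.59% of all tested genes. At an unadjusted p under 0.05, 5 were higher and 2 lower, beside 19.2% of all tested genes in either direction, and 1 was called lower by DESeq2. The 2 lower genes, named after the values were seen, were UGT74F1, a salicylate glucosyltransferase, at -0.83 (adjusted p = 0.0514, edgeR) and ICS2, the minor isochorismate synthase, at -0.46 (adjusted p = 0.201, edgeR). The risers were ICS1 and EDS5, 2 of the synthesis genes, and the hydroxylases DMR6 and DLO1, which remove salicylate. The synthesis genes PBS3, at 0.39 (adjusted p = 0.219, edgeR), and EPS1, at -0.01 (adjusted p = 0.988, edgeR), did not pass. PBS3 was among the 5 that were higher at an unadjusted p under 0.05. DMR6 went from 17.4 ± 2.62 to 68.7 ± 15.2 CPM (log2 fold change 1.98, SE 0.17, adjusted p = 5.5e-05, edgeR). DLO1 had 2 counts over the wild-type libraries and 191 over those labelled naa50-1, or 93.0 times as many per library size (95% interval 25.4 to 773, counting error only). Both DLO1 wild-type counts were in replicate 3, the library that also held the FMO1 counts. The fitted log2 fold change of DLO1 was 6.28, or 5.51 without naa50-1 replicate 2 and 8.97 without wild type replicate 3, a value that then rests on a prior count. ICS1, the isochorismate synthase, rose by 0.90 and EDS5, the exporter of isochorismate, by 1.19 on the log2 scale (adjusted p = 0.00692 and 0.00352, edgeR). EDS5 shares 213 bases with AT4G39040 on the opposite strand, which had a log2 fold change of 0.02.

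Of 15 genes known to respond in systemic resistance, 11 were tested, of which 7 rose and 0 fell by edgeR, beside 3.94% and 5.59% of all tested genes. The number that rose was 6 by DESeq2 and 5 by limma-voom, and 0 were lower at an unadjusted p under 0.05 or by DESeq2. The median log2 fold change of the 11 was 2.14. The 4 tested genes that did not pass were LLP1, ARD3, GRX480 and NIMIN1. Their log2 fold changes ran from 0.33 for ARD3 to 0.60 for NIMIN1 (adjusted p = 0.438 to 0.845, edgeR). LLP1, a lectin-like gene, had 34.5, 125 and 37.0 CPM under the naa50-1 label against 62.7, 42.4 and 41.2 CPM in the wild type. The count of 7 was 4 without wild type replicate 1, without wild type replicate 2 or without naa50-1 replicate 2. PR2, a secreted beta-glucanase, rose by 6.51 on the log2 scale to 200.04 ± 69.4 CPM (adjusted p = 3.5e-06, edgeR). PNP-A, a secreted natriuretic-like peptide, rose by 3.98 to 51.7 ± 13.95 CPM (adjusted p = 2.5e-05, edgeR). PR5, a thaumatin-like protein, rose by 2.41, or by 1.75 without naa50-1 replicate 2, where it was at 131 CPM against 45.3 and 49.998 in the other libraries of its label. WRKY38 had 1 count in the wild-type libraries and 118 in those labelled naa50-1, 115 times as many per library size (95% interval 20.2 to 4575, counting error only). Its fitted log2 fold change of 6.38 (adjusted p = 0.00738, edgeR) was 5.17 without naa50-1 replicate 2 and 8.26, with no wild-type count left, without wild type replicate 2. NIMIN2, which binds the receptor NPR1, rose by 1.05 (adjusted p = 0.0321, edgeR), a call that was lost when any library but naa50-1 replicate 3 was left out (adjusted p = 0.0603 to 0.12). PR1, the classical marker of salicylate signalling, rose by 3.14 (adjusted p = 0.0325, edgeR) with 0.952, 9.95 and 3.26 CPM under the naa50-1 label. Its call was lost without naa50-1 replicate 2 (1.97, adjusted p = 0.0937) and without any one of the 3 wild-type libraries (adjusted p = 0.0651 to 0.126). PR1 did not pass by limma-voom either (adjusted p = 0.209), nor by limma on log2(FPKM + 0.1) or log2(FPKM + 1) (adjusted p = 0.079 and 0.121). SAG13, a reductase induced in senescence and cell death, rose by 2.14 (adjusted p = 0.0429, edgeR), and did not pass by DESeq2 (adjusted p = 0.0984). Wild type replicate 3 held 12.99 CPM against 2.75 and 1.85 in the other wild-type libraries, and without it the log2 fold change was 3.48. Leaving out any other library lost the call (adjusted p = 0.0673 to 0.134). AZI1 and DIR1, lipid transfer proteins that long-distance resistance needs in leaves, had 0 wild-type counts, and 3 and 0 counts under the naa50-1 label. Of the other untested genes, WRKY62 held 4 counts against 35 and FRK1 held 12 against 58.

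Relatives of the pathway enzymes numbered 19, of which 14 were tested. Of these 1 rose and 0 fell by edgeR, with 0 lower at an unadjusted p under 0.05 and 0 by DESeq2. The share of all tested genes that rose was 3.94%, so a count of 1 is near the background here too. The riser was FMOGS-OX2, a flavin monooxygenase of glucosinolate side chains, which went from 26.2 ± 0.641 CPM to 70.4, 55.5 and 72.2 CPM (log2 fold change 1.33, SE 0.12, adjusted p = 5.8e-05, edgeR). Unlike SARD1 and CBP60G, it was lowest in naa50-1 replicate 2. The other 13 had log2 fold changes from -0.62 for UGT76E2 to 0.88 for UGT76C4. UGT76E1, UGT76E11 and UGT76E12 had 0 counts in all 6 libraries.

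**Figure D3:**
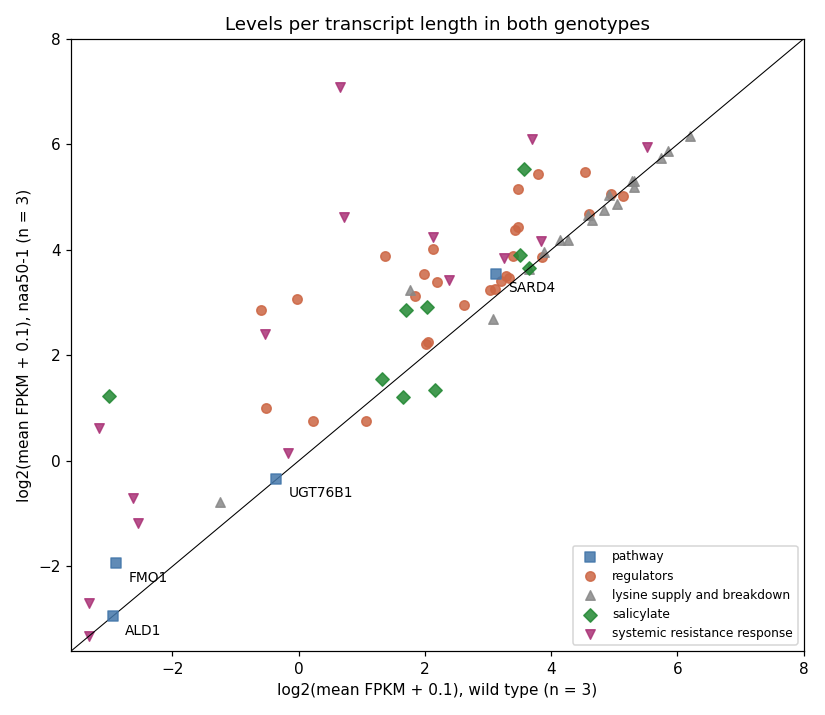
Mean level of each gene in log2(FPKM + 0.1) in the wild type (x axis) and in naa50-1 (y axis), with the line of equal levels, for the pathway and 4 lists of genes that supply, regulate or accompany it. The pathway genes UGT76B1 and ALD1 lie on the line, SARD4 just above it and FMO1 above it at the low end, whereas many regulators, salicylate and response genes lie well above it.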

How the data were processed

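RNA of closed buds was sequenced in 3 libraries per genotype. The submitters' processing notes name HISAT2 2.0.5 and TAIR10. No source used here gives the counter, the annotation release or the strand setting. The authors deposited whole-number read counts per gene, and FPKM values that came out as counts over gene length, scaled by size factors. The authors' deposited comparison table gives, per gene, the normalized signal of each group, the log2 fold change and its p-value. The groups and replicate numbers came from the sample titles.

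Counts were scaled by TMM, filtered by filterByExpr (minimum count 10) and tested with edgeR 4.0.16 quasi-likelihood (R 4.3.3), genotype alone as covariate, with Benjamini-Hochberg adjustment over 21196 genes and a threshold of 0.05. SE and intervals follow from the F statistic. ALD1 and FMO1 failed the filter, so they are given as counts, with a floor of 3 counts in each library and an exact interval of the ratio. An exact permutation test is given for FMO1. These forms were chosen after the values were seen. Alternatives were other scalings, no filter, DESeq2 1.42.0, limma 3.58.1 on log2(FPKM + 1), log2(FPKM + 0.1) and voom, a block for the replicate number, and fits without each library. Exonic sequences were compared by blastn 2.17.0. Coordinates in the files equalled the reference for 99.9% of 32548 matched genes. No library was a duplicate: within a group chi-square per degree of freedom was 12.9 to 28.2. The series calls them biological replicates.

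The members and lists were chosen with earlier results of these data known. Genes named outside the 4 members are up to 6 called regulators and up to 5 called genes from each other list, by smallest p, the 3 most alike in pattern, and neighbours. Other list genes were named after their values were seen. A choice of relatives by protein identity was replaced by nucleotide matches.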

Additional observations from a re-analysis of the deposited data

How the results depend on the processing

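SARD4 kept its direction and stayed outside the threshold in 14 of 14 alternative fits, with log2 fold changes of 0.30 to 0.60. UGT76B1 never passed either, but its sign was not stable: it ran from -0.26 without wild type replicate 2 to 0.41 without wild type replicate 1. FMO1 kept its direction, at 1.05 (set by the wild-type floor, without wild type replicate 3) to 2.30 with a library left out, against 2.17 for the ratio of mean CPM. The difference of ALD1 was between -0.0487 and 0.0471 CPM. Block and filtered limma fits gave no value for FMO1 and ALD1, which are under the filter. ALD1 was followed here as a CPM difference, not as a fold. The number of regulators called was 12 to 14 over the 14 fits, that of salicylate genes 4 to 5, and that of relatives 1 in each. The lysine list gave 0 calls without wild type replicate 1 or 2 and at most 1 otherwise, and the response list 4 to 6 with 1 library left out. The shift of the SARD4 to ALD1 ratio ran from -0.012 without wild type replicate 2 to 0.76. The shifts of UGT76B1 to FMO1 and FMO1 to ALD1 kept their signs, but the former went from -0.15 with a pseudocount of 1 to -2.84 with 0.01, by construction of a ratio of values near 0. The 4 ratios to SARD1 and CBP60G, added after the data were seen, kept their sign in every setting run, at 1.81 to 3.995. Same-numbered libraries of the genotypes deviated together at correlations of 0.00, 0.06 and 0.10, so the numbers were not taken to pair them, and not every library correlated best with its own number. With the replicate block 1969 genes were called against 2021, and SARD4 had a log2 fold change of 0.44 (adjusted p = 0.161, edgeR) and UGT76B1 of 0.04 (0.976). With that block 6 response genes were called, and PR1 did not pass (adjusted p = 0.0784, edgeR). On log2(FPKM + 1) the log2 fold changes of SARD1, CBP60G and DLO1 were 2.22, 2.31 and 1.56, and that of WRKY38 was 1.11, which did not pass (adjusted p = 0.0984, limma). Depth is a limit. ALD1 lies at the floor of 3 counts a library, so a change within its wide counting interval could not be resolved. FMO1 is under the count filter with at most 7 counts a library, so the size of its difference is poorly bounded.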
